A study of Homo sapiens with 19 samples.

Results

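V5-tagged E2F1 carrying the K185R change was mapped by chromatin immunoprecipitation and sequencing (ChIP-seq) in C4-2 cells treated with doxycycline and in the same line left untreated. The members are the intervals of enriched reads that the authors deposited for these groups, 22328 for doxycycline-treated K185R cells and 55681 for untreated K185R cells, out of 203381 intervals in the 10 lists of the series. Intervals of the 2 lists with at least 1 base in common were called shared. This left 17764 doxycycline-only intervals and 51109 untreated-only intervals. The shared class held 4564 intervals of the doxycycline list and 4572 of the untreated list.

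E2F1 is a transcription factor that drives genes of DNA replication and the cell cycle, and the pocket protein RB binds it and holds it in check. Lysine K185 of E2F1 is known as a residue that SETD7 methylates and that LSD1 can demethylate. In the K185R protein that lysine is replaced by arginine, which keeps the positive charge. Doxycycline is commonly used to switch tetracycline-controlled genes on or off.

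C4-2 is a castration-resistant human prostate cancer cell line, and both groups were grown in RPMI medium with 5% charcoal-stripped serum, which is low in steroids. The doxycycline group received 0.25 ug/ml doxycycline for 3 days, and neither group received the LSD1 inhibitor GSK2879552. Each group comprised 2 libraries made with an anti-V5 antibody, and the labels do not say how many clones the line represents or whether tagged E2F1 was present without doxycycline. The names of the intervals carry the words siRB in the list labelled doxycycline and siNTC in the list labelled untreated, so every statement on doxycycline holds for the groups as labelled. Each group is represented by 1 merged list, so the spread between its libraries could not be measured, no p-value was computed, and the 95% Wilson intervals below cover counting error over intervals only. The other lists used are those of V5 in C4-2 cells with K185R E2F1 under GSK2879552 (50 uM for 24 hours) with or without doxycycline, of V5 with wild-type (WT) E2F1 under the same 4 treatments, and of RB in untreated C4-2 and VCaP cells, VCaP being another prostate cancer line.

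The doxycycline list was shorter than the untreated list, and also shallower. It held 0.401 times as many intervals, at a depth of 1.12 reads per kilobase in the doxycycline list against 1.79 reads per kilobase in the untreated list, a depth ratio of 0.625. Intervals covered 4.29 Mb in doxycycline-treated cells and 10.1 Mb in untreated cells. Calculated for an untreated list in which each read was kept with a probability equal to the depth ratio, the length ratio was 0.590. That is higher than the measured 0.401 and still under equality. The calculation scaled the background by the same 0.625, although the genome-wide expected reads of the lists had a ratio of 0.691. It used the lowest −log10 p of the doxycycline list, 3.66, as a fixed threshold and called no intervals anew. With 1 list a group, differences in binding, in immunoprecipitation and between libraries cannot be told apart.

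Most intervals in both lists were weak. The number of reads at the summit, solved from the deposited fold enrichment and p-value, had a median of 5 in the doxycycline list and 5 in the untreated list. It was 5 or fewer in 74.7% of the doxycycline list and in 65.8% of the untreated list, and the highest summit had 331 reads with doxycycline and 302 reads untreated. The smallest width that a list allowed was taken by 59.7% of intervals in the doxycycline list and by 50.1% in the untreated list. A group of intervals lay where the local background was at least 10 times the lowest background of the list, called high background here, and it numbered 566 in the doxycycline list and 701 in the untreated list.

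Of the doxycycline list, 79.6% (79.0 to 80.1) of intervals had no counterpart in untreated cells, and 20.4% (19.9 to 21.0) were shared. Of the untreated list, 91.8% (91.6 to 92.0) had no counterpart in doxycycline-treated cells, and 8.21% (7.99 to 8.44) were shared. These shares set the background for every count of unshared intervals that follows. The classes had similar middles and different upper ends. The median fold enrichment, the authors' own value per interval, was 4.73 for doxycycline-only intervals, 4.66 for untreated-only intervals, 4.99 for shared intervals of the doxycycline list and 4.72 for shared intervals of the untreated list. A −log10 q of at least 5 was reached by 442 doxycycline-only intervals (2.49%) and by 2252 untreated-only intervals (4.41%). Among shared intervals it was reached by 1006 of the doxycycline list (22%) and by 1290 of the untreated list (28.2%). High background marked 0.214% of doxycycline-only and 0.380% of untreated-only intervals, against 11.6% and 11.1% of shared intervals in the doxycycline and untreated lists.

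Sharing followed the number of reads closely. Among low-background intervals of the doxycycline list, 15.2% were shared at 3 to 4 reads, 18.6% at 6 reads, 40.6% at 8 to 9 reads, 84.6% at 10 to 14 reads and 98.7% (95.3 to 99.6) at 15 or more reads. Among those of the untreated list, 5.67% were shared at 3 to 4 reads, 6.82% at 6 reads, 11.9% at 8 to 9 reads, 41.0% at 10 to 14 reads and 83.2% (78.8 to 86.8) at 15 or more reads. Only 2 of 151 doxycycline intervals with 15 or more reads were missing from the untreated list, while 57 of 339 untreated intervals of that size were missing from the doxycycline list. Equal reads mean a stronger enrichment in the shallower list, so the lists were also cut at equal enrichment, with the reads at the summit at least 50 times the genome-wide expectation of the list. By that measure 37 of 378 doxycycline intervals (9.79%, 7.19 to 13.2) and 74 of 390 untreated intervals (19.0%, 15.4 to 23.2) were unshared. The strongly enriched sites were thus almost equal in number, and more of those in untreated cells lacked a partner. A partner could be any interval of the other list, however weak. The untreated list offered 55681 partners down to a −log10 p of 3.43, and the doxycycline list 22328 down to 3.66. The cut therefore does not put the 2 unshared shares on equal terms, and the part of list length in them was not tested.

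**Figure D1:**
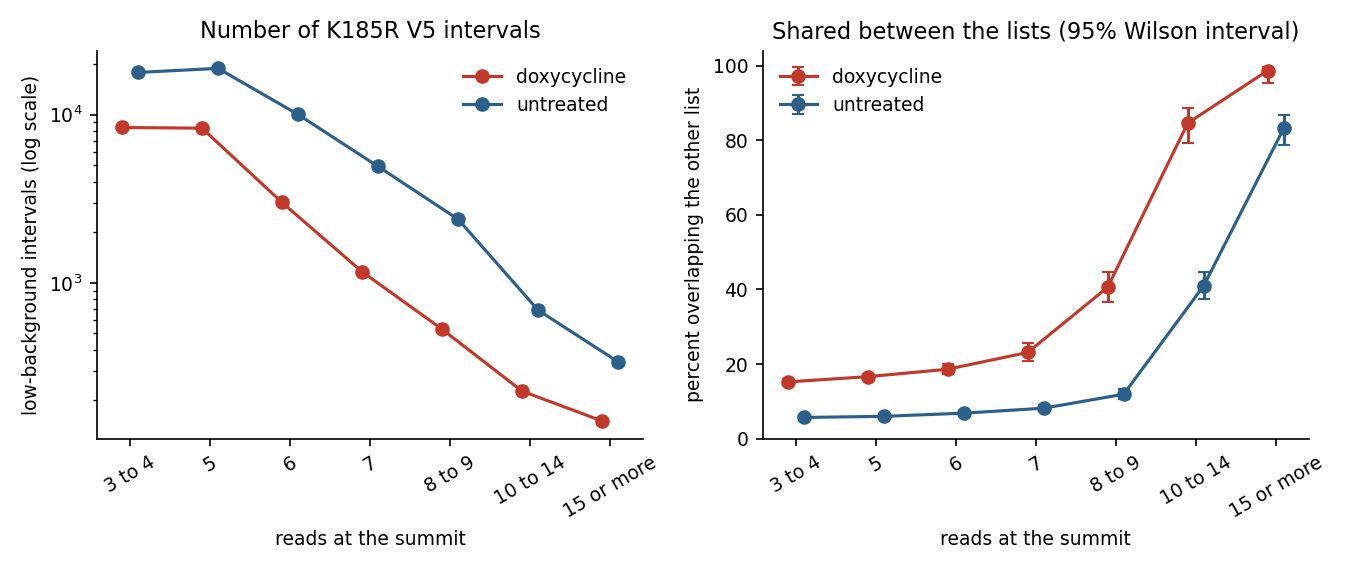
Low-background intervals of the K185R doxycycline list (red) and untreated list (blue) by reads at the summit: their number on a log axis (left) and the percent that overlap the other list, with 95% Wilson intervals over the intervals counted (right). Sharing lies at 15.2% and 5.67% for 3 to 4 reads and climbs to 98.7% and 83.2% for 15 or more reads in doxycycline-treated and untreated cells.

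The strongest shared intervals carried many reads in both groups. The one of highest −log10 q outside high background, at chr9:44070573-44070903 (hg19, as all coordinates here), had 79 summit reads and a fold of 29.3 in doxycycline-treated cells, against 98 reads and a fold of 31.6 in untreated cells. The next, at chr18:50319014-50319343, had 47 reads and a fold of 24.9 with doxycycline, against 49 reads and a fold of 25.9 untreated. Both overlapped a C4-2 RB interval and had an interval in each of the other 6 V5 lists, and the one on chromosome 9 also overlapped a VCaP RB interval. The other 4 of the 6 strongest shared intervals, of which 3 lie on chromosome 9 and 1 on chromosome 8, likewise overlapped C4-2 RB and recurred in all 6 other V5 lists. Their summit reads numbered from 39 to 50 with doxycycline and from 47 to 58 untreated. With high background admitted, the strongest shared interval was chr3:196625529-196625888, with 147 reads in doxycycline-treated cells, 150 in untreated cells and from 136 to 156 in the other 6 V5 lists. Its raw height was thus nearly the same in all 8 V5 lists, although their depths ran from 0.716 to 1.79 reads per kilobase. Equal reads are therefore unequal enrichment. In K185R its summit reads were 781 times the genome-wide expectation of the list with doxycycline and 551 times untreated. The next 2 lay on chromosome 9, at chr9:69710685-69711370 with 179 reads with doxycycline and 205 untreated and at chr9:66970978-66971522 with 178 and 193 reads, and both overlapped RB intervals of both cell lines.

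The strongest doxycycline-only intervals were smaller. The first, chr6:11387521-11387753, had 12 reads and a fold of 9.61, and the second, chr3:50102008-50102302, had 12 reads and a fold of 9.05. At equal enrichment each would have held 17.4 reads in the untreated list, where 4 and 5 reads would have met the p-value threshold over the same background. Neither overlapped an RB interval, and each recurred in 2 of the other 6 V5 lists, with 4 reads in WT doxycycline and 4 in WT doxycycline with GSK2879552 for the first, and 7 reads in WT doxycycline and 7 in K185R with GSK2879552 for the second. The third, chr6:17814230-17814513, had 11 reads and was found in no other V5 list. The remaining 3 of the top 6, with 9 to 10 reads, were each found in at most 1 other V5 list, which was WT with doxycycline. With high background admitted, 1 more entered the first 3, chr4:49128916-49129093, with 71 reads at a fold of only 2.90 and a background 127 times the floor.

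The strongest untreated-only intervals were larger and recurred more. The first, chr14:31696405-31696661, had 21 reads and a fold of 10.8 in untreated K185R cells, where equal enrichment would have given 14.5 reads with doxycycline and 5 would have passed. It had an interval in 5 of the other 6 V5 lists, with 22 reads in WT doxycycline and 10 to 13 reads in the other 4. The interval at chr22:35774965-35775208 had 17 reads and was found in all 6 other V5 lists with 7 to 11 reads, among them K185R with doxycycline and GSK2879552. The intervals at chrX:106877553-106877719 (19 reads) and chr10:76640453-76640704 (18 reads) were found in 3 and 1 other V5 lists, and neither overlapped an RB interval. With high background admitted, chr11:55014211-55014460 led the class with 35 reads and a fold of 7.95, at a C4-2 RB interval. Each of these sites had a V5 interval in at least 1 other list, and its absence from the doxycycline list rests on 1 pair of merged libraries.

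Where both lists had an interval, summit reads over the floor were more often higher in doxycycline-treated cells, by an amount that depended on how pairs were chosen. Summit reads were divided by the genome-wide expectation of each list, called the floor, which was 0.188 reads with doxycycline and 0.272 reads untreated. Over all 4585 overlapping pairs the median log2 ratio of doxycycline over untreated was 0.40, a ratio of 1.32, and 81.0% of pairs were higher with doxycycline. Weak pairs are bounded by the threshold, which takes more enrichment to pass in the shallower list, so pairs were also cut at equal enrichment, 50 times the floor or more in both lists. The 213 one-to-one pairs of low background past that cut had a median log2 ratio of 0.15 (quartiles -0.05 and 0.38), and 150 of them (70.4%) were higher with doxycycline. The median was 0.13 at 12 pairs over RB intervals of both cell lines, 0.19 at 118 pairs over RB intervals of C4-2 only and 0.09 at 81 pairs without RB. The direction was not the same throughout for the authors' fold, which is taken over local background with 1 read added to both terms. At low-background RB intervals of both cell lines met by both lists, the median fold was 7.41 with doxycycline and 7.70 untreated. At those of C4-2 alone it was also lower with doxycycline. Over all shared intervals it was higher with doxycycline, 4.99 against 4.72. The log2 ratios rest on 1 floor estimate per list and have no replicate check.

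**Figure D2:**
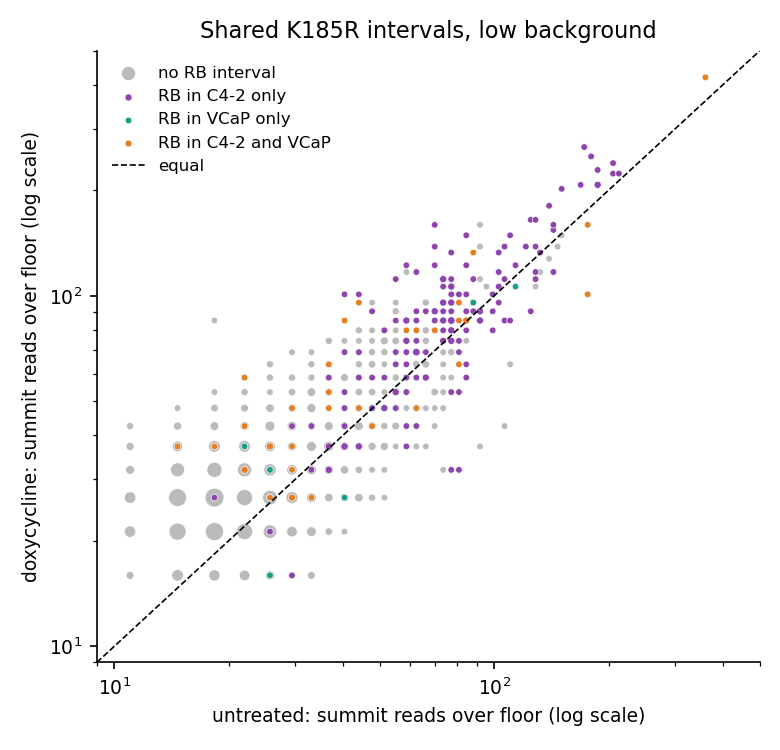
Summit reads over the genome-wide floor of the list in doxycycline-treated (vertical) and untreated (horizontal) K185R cells, both on log axes, for one-to-one shared intervals of low background. Each point is a combination of values, larger where more intervals share it, coloured by overlap with RB intervals. Of the pairs at 50 times the floor or more in both lists, 70.4% lie above the dashed line of equality, and the weakest pairs are bounded by the thresholds of the lists.

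RB intervals gave a readout that was not used to form the classes. At the 3 strongest shared intervals of any background, C4-2 RB summit reads numbered 149, 165 and 171, in a deeper list. V5 reads there were 147, 179 and 178 with doxycycline and 150, 205 and 193 untreated. At the 6 strongest of low background, RB reads ran from 29 to 112 and V5 reads with doxycycline from 39 to 79. How much of the overlap is signal common to C4-2 libraries of either antibody was not tested. Of the doxycycline list, 727 intervals (3.26%, 3.03 to 3.50) overlapped a C4-2 RB interval, and of the untreated list 980 (1.76%, 1.65 to 1.87). The overlap sat mostly in the shared class, which took 92.2% of the RB-overlapping intervals in the doxycycline list and 68.7% of those in the untreated list. Among unshared intervals it was 57 of the doxycycline-only class (0.321%, 0.248 to 0.415) and 307 of the untreated-only class (0.601%, 0.537 to 0.671), against 670 of 4564 shared intervals of the doxycycline list (14.7%, 13.7 to 15.7). Without high background the counts were 44 (0.248%) for doxycycline-only, 202 (0.397%) for untreated-only and 234 (5.80%) for shared intervals. RB overlap also went with reads: at 15 or more reads, 74.8% of doxycycline intervals and 58.4% of untreated intervals lay at RB, against 0.143% and 0.157% at 3 to 4 reads. The order of the lists in the share at RB turned when only the 1000 strongest intervals of each were kept, to 54.9% with doxycycline and 58.7% untreated.

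Counted from the RB side, fewer RB intervals held a K185R V5 interval with doxycycline than without. Of 9146 C4-2 RB intervals, 780 (8.53%, 7.97 to 9.12) overlapped a doxycycline interval and 1039 (11.4%, 10.7 to 12) an untreated interval. Both lists met 715 of them, the doxycycline list alone 65 and the untreated list alone 324. Thinned to the doxycycline depth by the calculation above, with its settings, the untreated list would meet 981 RB intervals, 275 of them alone. Doxycycline alone would then meet 74.5. Each read was kept independently. The untreated list was thus ahead in the number of RB intervals met, and behind in the share of its own intervals at RB.

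The lower number with doxycycline was seen at both kinds of RB interval. At 5233 low-background RB intervals present in both C4-2 and VCaP, 105 (2.01%, 1.66 to 2.42) held a doxycycline interval and 173 (3.31%, 2.85 to 3.83) an untreated one, with 24 met by doxycycline alone, 92 by untreated alone and 81 by both. At 3476 low-background RB intervals of C4-2 alone, 427 (12.3%, 11.2 to 13.4) held a doxycycline interval and 571 (16.4%, 15.2 to 17.7) an untreated one, with 28 met by doxycycline alone, 172 by untreated alone and 399 by both. In the same calculation for the doxycycline depth, the two-line set would have 27.0 sites met by doxycycline alone and 71.8 by untreated alone, and the C4-2-alone set 32.1 by doxycycline alone and 147 by untreated alone. RB intervals of high background were met more often in either group, 248 of 437 (56.8%) with doxycycline and 295 (67.5%) untreated.

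**Figure D3:**
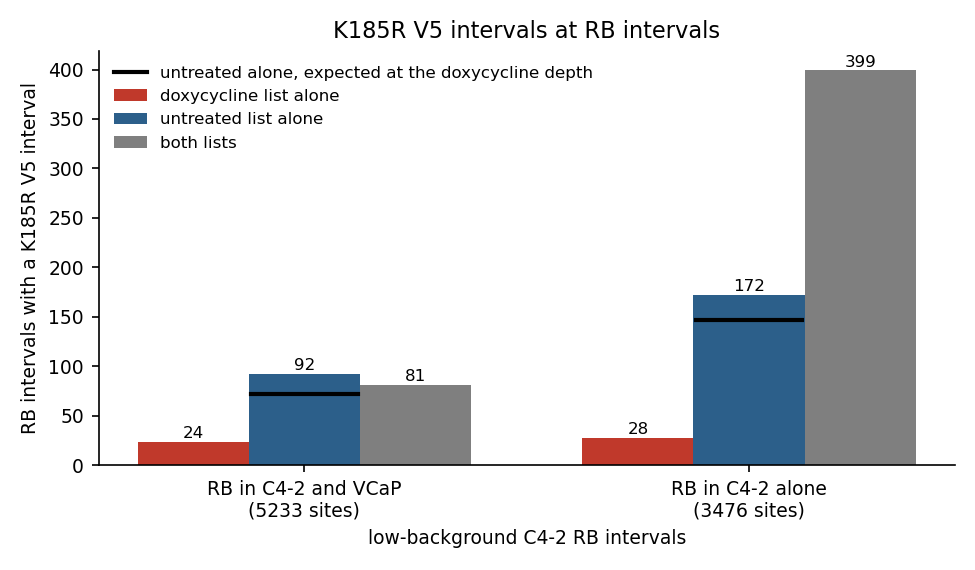
Number of low-background C4-2 RB intervals that overlap the K185R doxycycline list alone (red), the untreated list alone (blue) or both lists (grey), for RB intervals found in both cell lines and in C4-2 alone. Black lines give the untreated-alone number calculated for the doxycycline depth, 71.8 and 147, at which doxycycline alone would meet 27.0 and 32.1.

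RB intervals met by both V5 lists were the stronger RB intervals. In the two-line set their median was 50.0 RB reads at the summit, against 18.0 where doxycycline alone was met, 19.0 where untreated alone was met and 14 where neither was. The V5 reads were few at the unshared sites, with a median of 6 at the doxycycline-alone and 6 at the untreated-alone sites, against 18.0 with doxycycline and 23 untreated where both were met. Their summits also lay closer to the RB summit, at a median of 19.0 bases with doxycycline and 18.5 bases untreated where both lists met, and 47.5 bases at the doxycycline-alone and at the untreated-alone sites. At RB intervals of C4-2 alone the median RB reads were 17.5 at doxycycline-alone and 18.0 at untreated-alone sites, close to each other, against 25 where both were met. There V5 reads had a median of 7 at the 28 doxycycline-alone sites and 11.5 at the 172 untreated-alone sites, and V5 summits lay at a median of 45.5 bases from the RB summit at doxycycline-alone sites and 21.0 bases at untreated-alone sites.

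Most unshared V5 intervals at RB were nonetheless found under another condition. In the two-line set, 19 of 24 doxycycline-alone sites (79.2%) and 79 of 92 untreated-alone sites (85.9%) held an interval in at least 1 of the other 6 V5 lists, against 862 of 5036 sites (17.1%) that neither list met. At RB intervals of C4-2 alone the shares were 75% of 28 doxycycline-alone sites, 69.8% of 172 untreated-alone sites and 11.7% of those met by neither. Sites found in all 6 other lists numbered 0 and 2 for doxycycline alone and untreated alone in the two-line set, and 54 of the 81 met by both. Most single-condition sites thus held a V5 interval in at least 1 of the other 6 lists, and few held one in all 6.

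Named examples follow, 5 chosen by −log10 q and 3 chosen because they were found in most other V5 lists, so the recurrence of those 3 follows from the choice. The doxycycline-only interval of highest −log10 q at RB, chr1:170501417-170501642, had 8 reads and overlapped RB in both lines (18 reads in C4-2, 14 in VCaP). It was found in all 4 lists with GSK2879552, with 5 to 7 reads, and in neither WT list without it. The interval at chr3:14989975-14990145 had 8 reads with doxycycline, lay at RB of both lines (18 reads in C4-2, 34 in VCaP) and was found in 4 other V5 lists. So was that at chr15:52861178-52861379, with 8 reads with doxycycline and 8 to 12 reads in all 4 WT lists. The other 2 of the 5 highest, on chromosomes 7 and 8, had 10 reads each, overlapped RB in C4-2 but not in VCaP, and were found in 0 and 2 other V5 lists. The doxycycline-only intervals found most widely, each in 5 of the other 6 V5 lists, were chr22:38141971-38142157 (6 reads), chr4:83934044-83934211 (7 reads) and chr14:23182473-23182640 (5 reads). All 3 overlapped C4-2 RB, and all 3 were missing from K185R with doxycycline and GSK2879552 and, by their class, from untreated K185R.

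Untreated-only intervals of highest −log10 q at RB had 12 to 22 reads, in the deeper list. The interval at chr4:136497757-136498020 had 12 reads and a fold of 9.63 in untreated cells, overlapped C4-2 RB (18 reads) and was found in 3 WT lists with 4 to 7 reads. Others among the first 5 lay at chrX:61752410-61752658 (18 reads), chr11:48955930-48956178 (21 reads) and chr19:24599943-24600187 (20 reads), found in 1, 0 and 3 other V5 lists, and 1 on chromosome 8 with 22 reads in 3. The local backgrounds of these 4 were 4.85 to 7.37 times the floor, against 1.28 times at the chromosome 4 interval. Among the untreated-only intervals found in all 6 other lists, chr22:50946098-50946409 (11 reads) and chr17:33478074-33478321 (9 reads) overlapped C4-2 RB with 19 and 67 RB reads. The interval at chr12:38017133-38017333, with 17 reads untreated and 12 to 18 reads in the 6 other lists, overlapped no RB interval.

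Over all intervals, the doxycycline-only and untreated-only classes were found in other V5 lists at close shares. At least 1 of the other 6 V5 lists held 22.9% (22.3 to 23.5) of doxycycline-only intervals and 22.6% (22.3 to 23) of untreated-only intervals, against 54.7% (53.3 to 56.2) of shared intervals of the doxycycline list. The share went roughly with the length of the other list: the longest, WT with doxycycline, held 17.3% of doxycycline-only and 16.6% of untreated-only intervals, and the next longest, WT untreated, held 3.91% and 4.26%. In K185R with doxycycline and GSK2879552, the other K185R list with doxycycline, the shares were 0.895% of doxycycline-only and 0.970% of untreated-only intervals. In K185R with GSK2879552 alone they were 2.71% and 2.91%. In WT with doxycycline the 95% intervals of the shares met (16.7 to 17.8 for doxycycline-only and 16.3 to 16.9 for untreated-only), and at equal summit reads of 3 to 4 it held 16.7% of doxycycline-only and 15% of untreated-only intervals. The difference was larger at 10 to 14 reads, where that list held 54.3% of 35 doxycycline-only and 35.2% of 406 untreated-only intervals. In any of the 6 lists, 23 of 35 doxycycline-only intervals (65.7%, 49.2 to 79.2) and 183 of 406 untreated-only intervals (45.1%, 40.3 to 49.9) of that size recurred, at unequal enrichment. At low background and 50 times the floor or more the order turned. There 24 of 37 doxycycline-only intervals (64.9%) and 59 of 74 untreated-only intervals (79.7%) recurred.

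**Figure D4:**
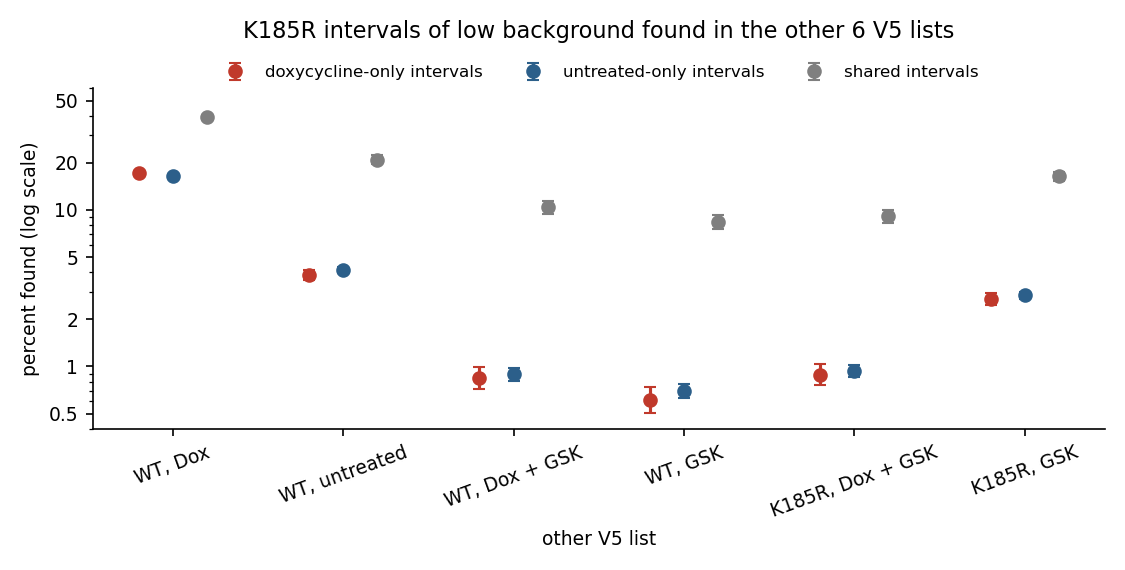
Percent (log axis) of low-background doxycycline-only (red), untreated-only (blue) and shared (grey, doxycycline list) K185R intervals that overlap each of the other 6 V5 lists, with 95% Wilson intervals. GSK is GSK2879552. Red and blue points lie close together in every list, and the grey points lie above them.

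The classes were spread similarly over the chromosomes. The number of doxycycline intervals over untreated intervals ran from 0.350 on chromosome 4 to 0.463 on chromosome 19 among the autosomes, with a median of 0.408, and was 0.334 on X. Chromosome 19, with the most RB intervals per Mb of the autosomes (7.35), held 425 doxycycline and 918 untreated intervals. Over the 22 autosomes the ratio rose with RB intervals per Mb, with a Spearman correlation of 0.60, given as a description since the chromosomes share the same 2 lists. Chromosome Y stood apart at 0.670, with 142 doxycycline and 212 untreated intervals. There 113 doxycycline intervals (79.6%) were shared, and high background marked 59 doxycycline and 68 untreated intervals. In 2914 bins of 1 Mb, doxycycline-only and untreated-only numbers had a Spearman correlation of 0.48, while each had a weaker one with RB intervals (0.31 for doxycycline-only and 0.30 for untreated-only).

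**Figure D5:**
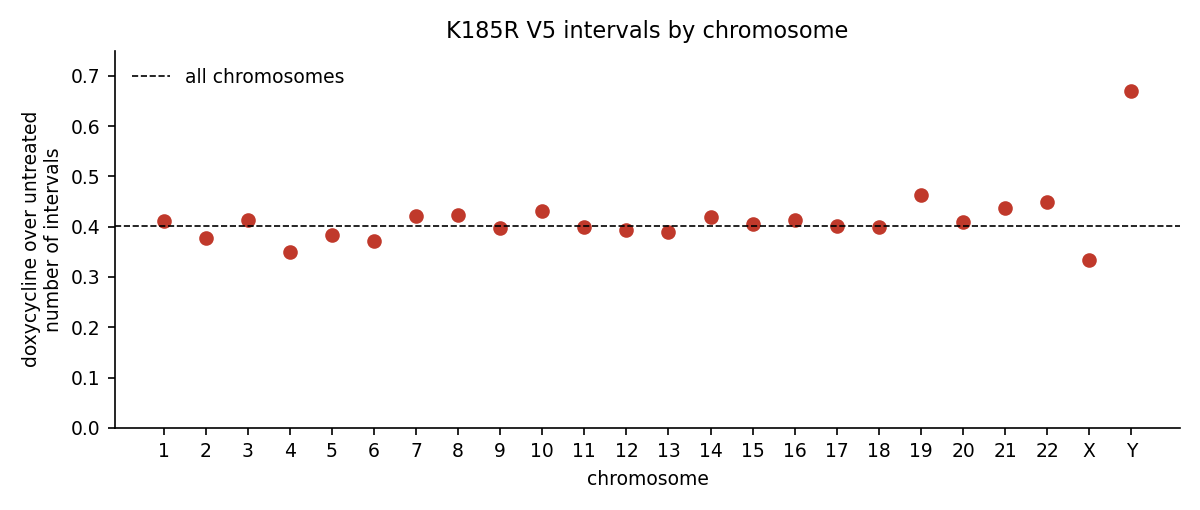
Number of K185R doxycycline intervals divided by the number of untreated intervals on each chromosome; the dashed line is the ratio over all chromosomes, 0.401. Autosomes lie between 0.350 and 0.463, X at 0.334 and Y at 0.670.

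Few unshared summits lay within 1 kb of a summit of the other list. No distance expected from the length of the lists was calculated, so the distances are given as a description. The median distance from a doxycycline-only summit to the nearest untreated summit was 16.1 kb, and 3.65% lay within 1 kb. From an untreated-only summit to the nearest doxycycline summit it was 41.7 kb, with 1.51% within 1 kb, in a list with fewer intervals to be near. Genes near the intervals were not analysed here, because the intervals are on hg19 and the gene table at hand is on GRCh38.p14.

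Side by side, the doxycycline comparison of K185R differed from that of WT in the direction of list length. The length ratio of doxycycline over no doxycycline was 0.401 in K185R at a depth ratio of 0.625, and 4.24 in WT at a depth ratio of 1.15. Under GSK2879552 it was 0.353 in K185R at a depth ratio of 0.818, and 1.38 in WT at 1.13. At RB intervals of both lines the untreated list was ahead in K185R and also in WT, where doxycycline alone met 82 and untreated alone 286. Under GSK2879552, doxycycline alone met 8 and the list without doxycycline alone 107 in K185R, while in WT the order was the other way, 317 with doxycycline alone and 242 without. Intervals of low background at 50 times the floor or more numbered 378 with doxycycline and 390 untreated in K185R, and 361 and 430 in WT. Under GSK2879552 they numbered 262 with doxycycline and 285 without in K185R, and 744 and 845 in WT. At that cut the number with doxycycline was the lower in each pair, but 378 and 390 in K185R are too close to give an order. Reads are whole, so in K185R the cut fell at 10 reads with doxycycline and 14 untreated. Of the intervals past the cut, 18.0% of WT doxycycline and 19.8% of WT untreated intervals were unshared. In K185R 9.79% of doxycycline and 19.0% of untreated intervals were, with partners of any strength counted. With 1 list a group none of these differences between WT and K185R could be tested, and the part of depth in them was not tested.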

How the data were processed

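Per the submitters' processing notes, FastQC 0.11.9, BWA 0.7.9a, SAMtools 1.2, MACS2 2.1.0 and build hg19 were used. Not given in the sources used here were their roles and settings, duplicate removal and any control library. A single interval list per group was deposited by the authors. Each interval carries the authors' fold enrichment (a ratio), a deposited −log10 p and −log10 q, a deposited integer score, and the deposited offset of the summit.

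Summit reads and local background were solved per interval from fold and p, taking 1 read added to both terms and a Poisson p, as MACS2 does. Recomputed −log10 p differed by at most 0.00012 in both K185R lists. Background above the floor was a whole number of reads per 10 kb, within 0.05 reads, in 100% of such intervals. The floor is the lowest background that 5 or more intervals of a list had in common, and depth is the floor over the smallest width (168 bases with doxycycline, 152 bases untreated). High background is at least 10 times the floor. The solver was tested on simulated intervals. Python 3.11.15, numpy 2.4.6, pandas 2.3.3, scipy 1.17.1 and matplotlib 3.10.9 were used.

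Named intervals lie on chromosomes 1 to 22 and X: the 6 of highest −log10 q per class, the 5 of highest −log10 q at C4-2 RB, the 5 found in most other V5 lists, all of low background, and the 3 strongest with any background. Coordinates are 1-based, and those of intervals on chromosome 8 are not printed. The members and lists were chosen with earlier results of these data known. Reads from PCR without molecular identifiers are not independent molecules, so Wilson intervals cover counting error only. Alternatives are given in the closing section.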

Additional observations from a re-analysis of the deposited data

Results flagged for a closer look

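The number of intervals in the whole lists moved in opposite directions with doxycycline in the K185R and WT lines. At low background and 50 times the floor or more no opposite directions were seen. The numbers there were close in K185R, at 378 doxycycline and 390 untreated intervals, and were 361 and 430 in WT. The length ratio of doxycycline over untreated was 0.401 in K185R, against 4.24 in WT. Under GSK2879552, doxycycline over no doxycycline was 0.353 in K185R and 1.38 in WT. The depth ratios of these pairs were 0.625 and 0.818 in K185R, and 1.15 and 1.13 in WT. The difference between K185R and WT was not tested, because each group is 1 merged list, and the part of depth in it was not tested.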

How the results depend on the processing

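No paired analysis was possible because each group is 1 merged list, and for the same reason no replicate could be left out. The comparison at promoters was not run, since the gene table is on another build. The doxycycline list stayed the shorter under every alternative that gives a length ratio. At a −log10 q of at least 5 the ratio was 0.409, 57.9% of the doxycycline list was shared, 609 doxycycline-only and 2702 untreated-only intervals were counted, and 41.1% of doxycycline and 20.9% of untreated intervals lay at RB. Without high background 18.5% was shared and 1.28% of doxycycline and 0.835% of untreated intervals lay at RB. Rescaling the untreated reads to the doxycycline depth gave a ratio of 0.430, 19.6% shared and 1.87% of untreated intervals at RB, and covered bases gave a ratio of 0.426. The 1000 strongest intervals of each list were shared to 66.4%, with 336 doxycycline-only and 336 untreated-only, and here the order at RB turned, 54.9% with doxycycline and 58.7% untreated. An overlap of 50% of both intervals gave 16.2% shared, with 2.30% of doxycycline and 1.26% of untreated intervals at RB, and summits within 100 bases gave 16.7%, 2.96% and 1.60%. Keeping each untreated read with the ratio of depths, chosen after seeing the data, gave a ratio of 0.590, 15.8% shared and 2.44% of untreated intervals at RB, and 34297 untreated-only intervals. At a −log10 q of at least 5, 36.4% of doxycycline-only and 39.7% of untreated-only intervals recurred in another V5 list, and 22% of untreated-only intervals did when weighted to equal summit reads. The median log2 ratio at shared intervals was positive under all alternatives run, at 0.15 to 0.53, each with reads divided by the floor. It was 0.15 with at least 50 times the floor in both lists and 0.26 with 10 or more reads in both, a cut that asks for more enrichment in the shallower doxycycline list, and both were chosen after seeing the data. Depth limits the weak end, where 5 or fewer reads carry most intervals.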
